A study of Mus musculus with 19 samples.

Results

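Collagens are the structural proteins of the extracellular matrix, and their transcripts were examined here in E0771, a mammary carcinoma line from the mouse, sorted back out of tumors that had grown in mice of either diet group, lean or obese. Each collagen molecule is a triple helix of 3 alpha chains, and each chain is the product of its own gene. Fibrillar collagens (types I, II, III, V and others) build the load-bearing fibers of connective tissue. Basement membrane collagens (type IV) form sheets beneath epithelium and around vessels, and type VI collagen forms beaded filaments around cells. In a mammary tumor, fibroblasts are the textbook source of fibrillar collagen, and cancer cells themselves can also make matrix.

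The collagen genes were all rows of the count table whose gene identifier carried a symbol of the form Col, number, a, number. They were 44 of 39017 genes: 11 fibrillar, 6 basement membrane and 27 of other classes. The other classes were 9 FACIT collagens (which decorate fibrils), 7 beaded filament chains, 4 transmembrane collagens, 3 short chain network collagens, 2 multiplexins (which sit at basement membranes) and 2 others. Of the 44, 30 had enough counts to be tested, and the 14 below that filter had a mean of at most 0.107 counts per 1000000 (CPM). Every one of the 44 had at least 1 count over the 18 libraries.

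The cells carried the red fluorescent protein mCherry, and 50000 of them were placed in the mammary fat pad of c57bl6 mice, per the labels. Mice were lean (titled Chow) or obese (titled HFD), and tumors were taken at day 14 (midpoint) or day 21 (endpoint), dissociated and sorted for mCherry before RNA was extracted. All groups carried the same implanted line and the same fluorescent label, so the model is 1 line in 1 strain, and no unimplanted or cultured E0771 cells are among the libraries analysed here. The groups compared held 4 lean midpoint, 5 obese midpoint, 4 lean endpoint and 5 obese endpoint tumors, 1 library each. Host age and sex were not used here. P-values set differences between groups against the variation between these tumors.

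The 18 libraries held 44174080 to 56996252 counts. Lean endpoint replicate 4 was left out, because its 11889188 counts stopped on chromosome 5 and it had counts for 15 of the 18 collagen genes on chromosomes 1 to 4 and for 0 elsewhere. Libraries also differed in how expression followed the GC content of genes. Slopes were fitted to each gene's log2 CPM minus its own mean over the 18 libraries, so they compare libraries with each other. For every 10 points of GC, this difference rose on average by 0.258 ± 0.171 (SD, n = 4) across genes at lean midpoint. At obese midpoint it rose by 0.946 ± 0.464 (n = 5). The slope was negative at the endpoint, -0.563 ± 0.348 (n = 4) for lean and -0.703 ± 0.183 (n = 5) for obese tumors. Mitochondrial transcripts took 8.95 to 12.3%, 5.79 to 8.06%, 17.1 to 44.7% and 17.1 to 24.4% of counts in the same order, with lean endpoint replicate 1 the highest.

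Marker genes were set beside the sort. Of 8 epithelial markers only Krt8 reached 1 CPM (29.2, 47.8, 24.6 and 20.9 CPM on average in lean midpoint, obese midpoint, lean endpoint and obese endpoint tumors). Epcam averaged 0.173 CPM or less in every group, and Cldn4 had 0 counts in all 18 libraries. Of 13 fibroblast markers 9 reached 1 CPM, and the summed level of the list was 1002 ± 139, 879 ± 183, 999 ± 160 and 917 ± 135 CPM in the 4 groups. That sum came mainly from Dpt, Pdgfra, Pdgfrb and Fbln2, whereas Dcn, which encodes decorin, was at 1.03, 0.772, 16 and 30.7 CPM and Fap at 0.345 CPM or less. The mCherry-sorted cells carried abundant transcripts from the fibroblast list but little of several defining fibroblast genes. Summed macrophage and monocyte markers, 8 of 8 at 1 CPM or more, were at 296 ± 101, 143 ± 36.1, 230 ± 68.0 and 207 ± 172 CPM, pan-leukocyte markers at 84.8, 61.8, 46.1 and 57.2 CPM and adipocyte markers at 2.18 CPM or less. Obese endpoint replicate 4 stood apart in both immune lists, at 510.4 CPM for macrophage and monocyte markers (99.9 to 164 in the other 4) and 139 CPM for pan-leukocyte markers (27.6 to 48.9). Without it the obese endpoint means were 131 and 36.8 CPM. The fit without it called 18 collagen genes over time in obese mice and 0 between diets at endpoint. With it 19 were called over time, where 73.9% of all genes were, and the share without it is not given here. Whether the marker transcripts came from the implanted cells or from host cells in the sort was not tested.

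Collagen transcripts made up 1.33 ± 0.218% (n = 4) of all counts in lean midpoint and 1.46 ± 0.311% (n = 5) in obese midpoint tumors. At the endpoint they made up 0.736 ± 0.215% (n = 4) in lean and 0.837 ± 0.137% (n = 5) in obese mice. These shares include mitochondrial counts in the total, which rose over the same interval as given above. Libraries were also scaled by the TMM method, which applies a factor to each library and assumes that most genes do not change. In CPM scaled in this way, the summed collagen level was 11571 ± 2177, 14500 ± 3631, 8120 ± 1078 and 8594 ± 1189 in the 4 groups. In bulk RNA, fewer cells of a type and less RNA per cell cannot be told apart.

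Few chains supplied nearly all of it. The 10 highest genes averaged 193 CPM or more, and the next, Col7a1, averaged 15 CPM, so a wide gap separated them from the rest. A further 11 genes lay between 1 and 100 CPM and 23 below 1 CPM, 13 of these below 0.1 CPM. To compare genes of unequal length, levels were divided by the exon length given with the counts, as CPM per kilobase (kb). Values per kb depend on that length, and the lengths of the transcripts present were not measured. On that scale the 10 genes made up 99.5% of the collagen pool. Type VI chains took 51.8% of it, the pair Col4a1 and Col4a2 16.3%, and the type I chains 0.0700%.

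**Figure D1:**
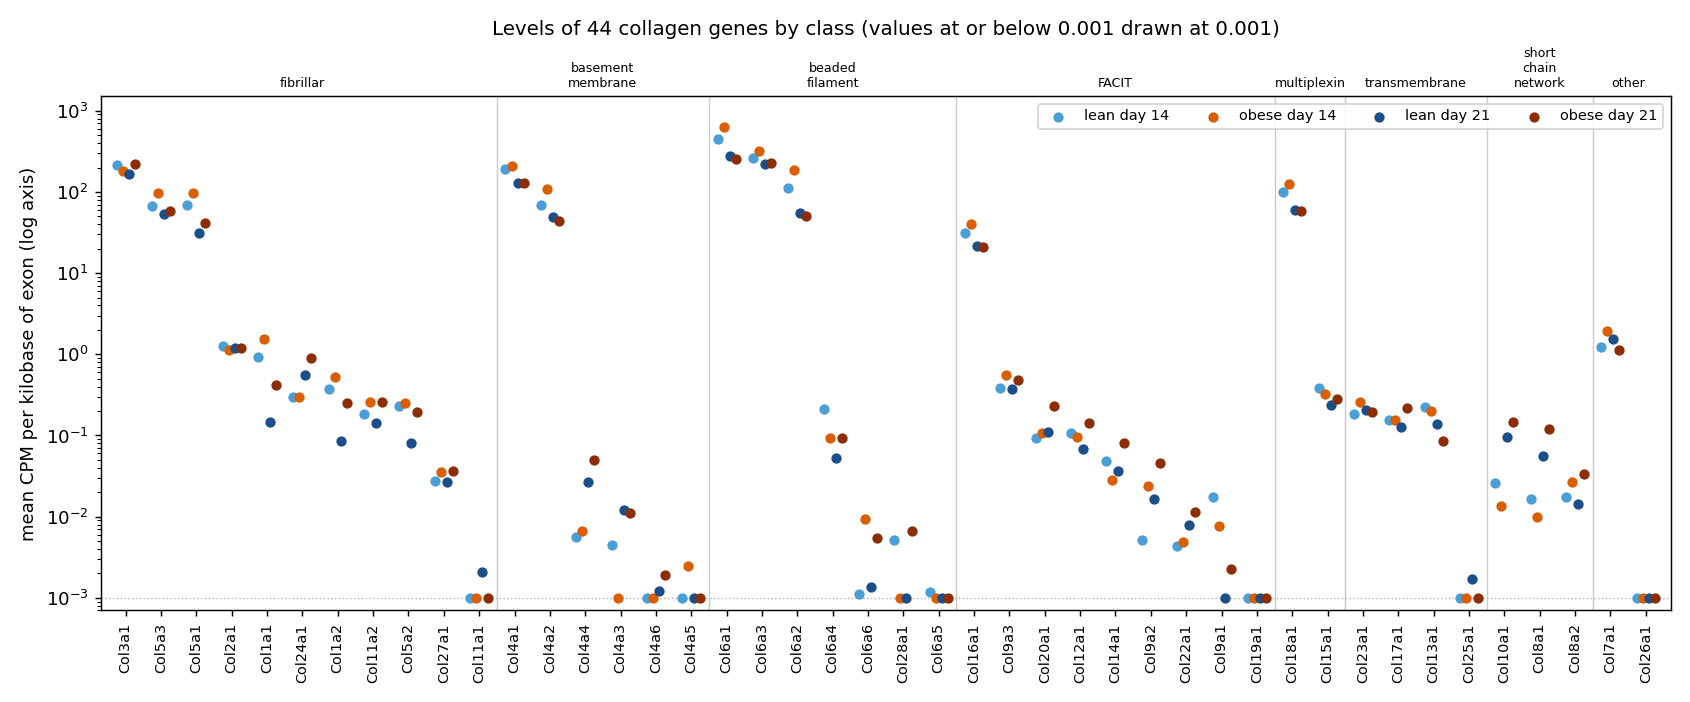
Mean level of the collagen genes in CPM per kb of exon on a log axis, by class and group. Values at or below 0.001 are drawn at 0.001. Col6a1 and Col6a3 lead in all 4 groups, and members outside the 10 highest lie far lower.

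The beaded filament chains Col6a1, Col6a2 and Col6a3, which assemble together into the type VI collagen monomer, averaged 407, 103 and 257 CPM per kb over the 18 libraries. In the sentences that follow, values run in replicate order within the lean midpoint, obese midpoint, lean endpoint and obese endpoint groups, and the lean endpoint values are replicates 1, 2, 3 and 5. Col6a1 was at 2317, 1692, 1400.3 and 2421 CPM in lean midpoint, 1596, 4332, 2284, 2561 and 3158 CPM in obese midpoint, 1105, 1609, 1176 and 940.3 CPM in lean endpoint and 865, 1391, 969, 1141 and 1142 CPM in obese endpoint tumors. Obese midpoint replicate 2 was the highest of all, and in obese mice every endpoint tumor lay below every midpoint tumor. Col6a2 was at 1070.3, 747, 635 and 1256 CPM in lean midpoint, 764, 2562, 1441, 1326 and 1634 CPM in obese midpoint, 421, 611, 459 and 352 CPM in lean endpoint and 301, 599, 389, 339 and 463 CPM in obese endpoint tumors. Midpoint and endpoint did not overlap in either diet group. Col6a3 was at 3899, 2371, 2774 and 3479.6 CPM in lean midpoint, 2185, 4199.5, 3754, 4882 and 3826 CPM in obese midpoint, 3455, 2490.3, 2093 and 2400.5 CPM in lean endpoint and 2448, 2798, 2360.4, 2271 and 3712 CPM in obese endpoint tumors. Here midpoint and endpoint overlapped in both diets. The other type VI genes were scarce: Col6a4 averaged 0.944 CPM, and Col6a5 and Col6a6 0.0350 CPM or less.

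Among fibrillar genes Col3a1, the single chain of type III collagen, stood alone at the top with 197 CPM per kb. Col3a1 was at 2015, 1753, 1621 and 1770.3 CPM in lean midpoint, 1223, 1228, 855, 2014 and 2372 CPM in obese midpoint, 1244, 1959, 1212 and 1188 CPM in lean endpoint and 1316, 2132, 1557, 2330.3 and 1899.9 CPM in obese endpoint tumors. All 4 groups overlapped. Col5a1 and Col5a3, 2 chains of the type V collagen that helps start fibrils, averaged 60.6 and 70.2 CPM per kb. Col5a1 was at 706, 457, 489 and 701 CPM in lean midpoint, 454, 1136, 800.3, 831 and 888 CPM in obese midpoint, 172, 349, 242 and 298 CPM in lean endpoint and 286, 424, 323, 299.6 and 411 CPM in obese endpoint tumors. Midpoint and endpoint did not overlap in either diet. Col5a3 was at 542, 374, 432 and 491 CPM in lean midpoint, 502, 1009, 755, 531 and 552 CPM in obese midpoint, 295, 397, 289 and 465 CPM in lean endpoint and 409, 396, 448, 336 and 381 CPM in obese endpoint tumors. Midpoint and endpoint overlapped in lean but not in obese mice.

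Type I collagen, the main collagen of skin, bone and tumor stroma, was scarce in these libraries. Col3a1 was 251 times as high per kb as Col1a1 and 619 times as high as Col1a2. Col1a1 was at 6.79, 3.78, 2.48 and 11.4 CPM in lean midpoint, 7.34, 10.1, 16.9, 8.4 and 8 CPM in obese midpoint, 0.504, 0.901, 0.726 and 1.68 CPM in lean endpoint and 1.88, 3.43, 4.02, 2.7 and 1.63 CPM in obese endpoint tumors. Obese midpoint replicate 3 was the highest, and midpoint and endpoint did not overlap in either diet. Col1a2 was at 5.98, 3.72, 2.27 and 6.1 CPM in lean midpoint, 6.56, 6.07, 8.19, 4.82 and 6.38 CPM in obese midpoint, 1.67, 0.6, 0.303 and 1.54 CPM in lean endpoint and 2.3, 3.52, 4.48, 3.15 and 1.77 CPM in obese endpoint tumors. Again midpoint lay above endpoint without overlap in both diets. Col5a2, the type V chain that pairs with Col5a1 in the common form of type V collagen, was lower still at 0.194 CPM per kb. Col5a2 was at 2.22, 2.13, 1.76 and 2.68 CPM in lean midpoint, 3.68, 1.44, 1.61, 2.45 and 3 CPM in obese midpoint, 1.26, 0.675, 0.726 and 0.468 CPM in lean endpoint and 1.07, 1.75, 2.35, 2.65 and 1.49 CPM in obese endpoint tumors. The lean endpoint tumors lay below all lean midpoint tumors, whereas the obese groups overlapped. Col24a1, a fibrillar collagen known from developing bone, was the member of its class with the opposite pattern. Col24a1 was at 2.38, 2.41, 3.11 and 1.08 CPM in lean midpoint, 1.18, 2.11, 2.05, 3.65 and 2.51 CPM in obese midpoint, 7.16, 3.13, 3.27 and 3.59 CPM in lean endpoint and 5.59, 6.09, 5.65, 7.87 and 9.54 CPM in obese endpoint tumors. Every endpoint tumor lay above every midpoint tumor of the same diet, in lean mice only narrowly (3.13 against 3.11 CPM). The lean difference did not pass the edgeR test described below (adjusted p = 0.0519). The lean endpoint tumor that was left out lay below the others of its group in this gene, as given at the end. Of the remaining fibrillar genes Col2a1, the cartilage collagen, averaged 7.16 CPM, Col11a2 1.48 CPM, Col27a1 0.420 CPM and Col11a1 0.00448 CPM.

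Col3a1 and Col5a2 are neighbours on chromosome 1 in the tail to tail orientation, with 24614 bases between them (GRCm38, chr1:45311538-45349706 and chr1:45374321-45503282). Their levels per kb differed 1017-fold.

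In the basement membrane class only the pair Col4a1 and Col4a2, which form the widespread type IV network, was well expressed, at 164 and 69.4 CPM per kb. Col4a1 was at 1488, 1139, 1166 and 1383 CPM in lean midpoint, 1229.7, 1600.1, 1008, 1570.2 and 1697 CPM in obese midpoint, 689, 1099, 888 and 824 CPM in lean endpoint and 742, 1015, 843, 833 and 917 CPM in obese endpoint tumors. Lean midpoint and endpoint tumors did not overlap, and in obese mice a single midpoint tumor, replicate 3, fell within the endpoint range. Col4a2 was at 545, 370.4, 380.4 and 553 CPM in lean midpoint, 462, 1039.9, 765, 679 and 696 CPM in obese midpoint, 309, 356, 351 and 294 CPM in lean endpoint and 269, 340.2, 276, 255 and 329 CPM in obese endpoint tumors. Midpoint lay above endpoint without overlap in both diets, and obese midpoint replicate 2 was the highest. The chains of the specialised type IV networks, Col4a3, Col4a4, Col4a5 and Col4a6, averaged 0.148 CPM or less.

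Among the other classes, Col18a1, a multiplexin whose C-terminal fragment is endostatin, and Col16a1, a FACIT collagen, were the only further genes above 100 CPM. Col18a1 was at 872, 514, 642 and 793 CPM in lean midpoint, 517, 1309, 1004, 799 and 809 CPM in obese midpoint, 387, 509, 372 and 435 CPM in lean endpoint and 409, 462, 402, 359.7 and 439 CPM in obese endpoint tumors. Midpoint and endpoint did not overlap in either diet. Col16a1 was at 227, 181, 178 and 247 CPM in lean midpoint, 202, 378, 242, 239.9 and 291 CPM in obese midpoint, 125, 183, 134 and 145 CPM in lean endpoint and 133, 158, 132, 151 and 126 CPM in obese endpoint tumors. The obese groups did not overlap, and lean endpoint replicate 2 lay within the lean midpoint range. Col7a1, which forms the anchoring fibrils that tie epithelium to dermis, came next. Col7a1 was at 15, 11.7, 9.63 and 13.9 CPM in lean midpoint, 13.8, 33.8, 23.2, 12.9 and 15.7 CPM in obese midpoint, 14.4, 14.5, 20.0 and 13.2 CPM in lean endpoint and 7.74, 10.7, 17.2, 10.2 and 12.4 CPM in obese endpoint tumors. The groups overlapped, and obese midpoint replicate 2 was again the highest.

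**Figure D2:**
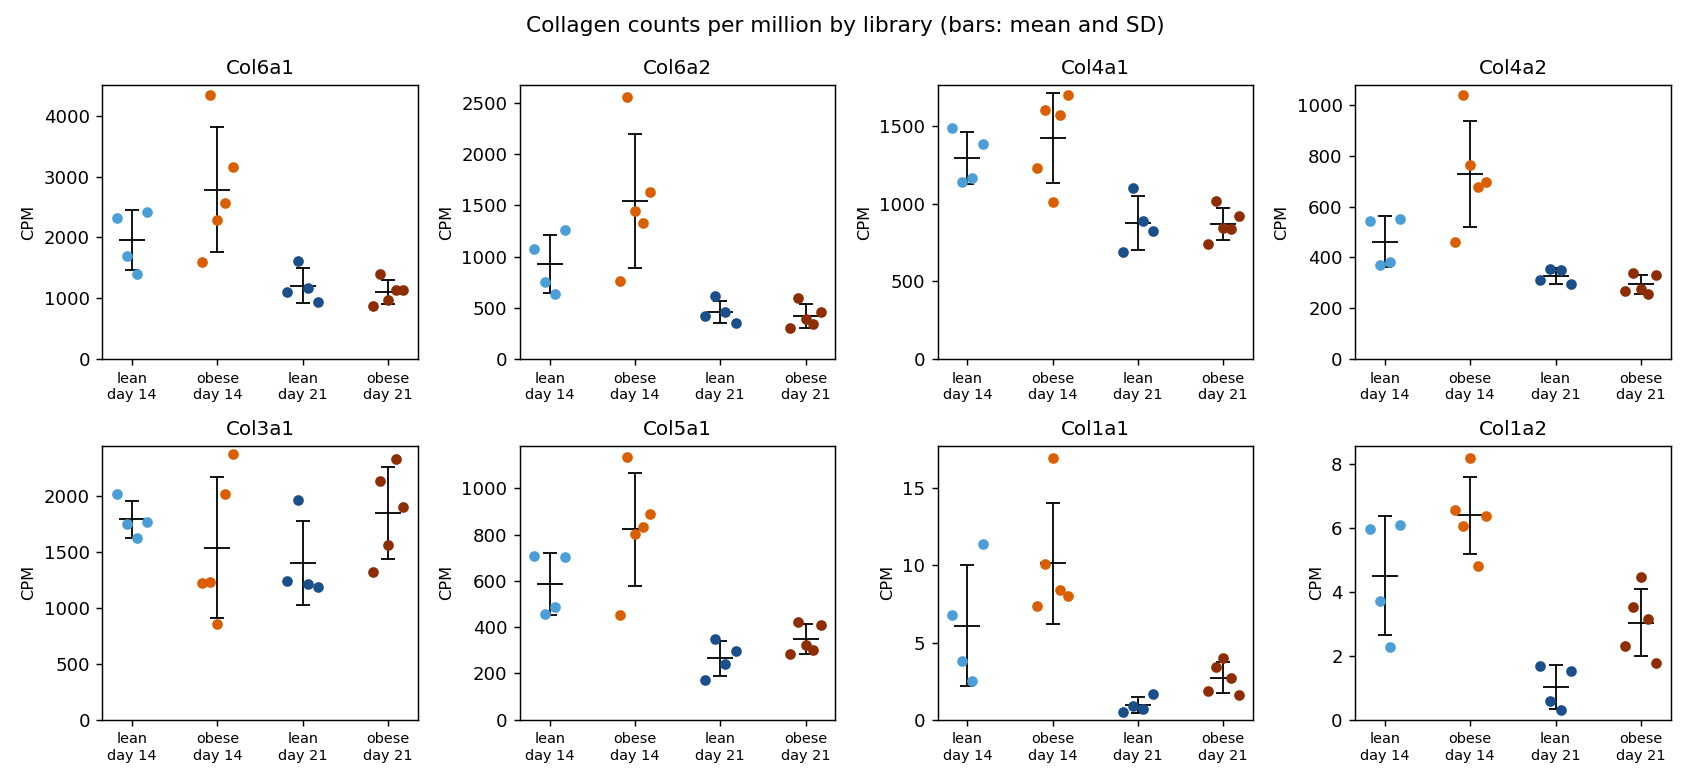
Level of named collagen genes in each of the 18 tumors, in CPM on linear axes from 0, by group, for 8 genes; points are tumors and bars the group mean and SD. Col6a2, Col4a2, Col5a1, Col1a1 and Col1a2 lie lower at the endpoint in both diets without overlap, whereas the groups overlap for Col3a1.

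Promoter windows, from 250 bases before to 50 after the annotated start, were available in RefSeq (GRCm38.p6) for 35 of the 44 genes, as 38 windows. The windows of 4 genes are shown, because they belong to the paired type IV genes and to a highly and a barely expressed fibrillar gene. Capitals mark a match on either strand to CCAAT, to the GC box GGGCGG or to the TATA motif TATAAA.
Col4a1, chr8:11312777-11313076, minus strand: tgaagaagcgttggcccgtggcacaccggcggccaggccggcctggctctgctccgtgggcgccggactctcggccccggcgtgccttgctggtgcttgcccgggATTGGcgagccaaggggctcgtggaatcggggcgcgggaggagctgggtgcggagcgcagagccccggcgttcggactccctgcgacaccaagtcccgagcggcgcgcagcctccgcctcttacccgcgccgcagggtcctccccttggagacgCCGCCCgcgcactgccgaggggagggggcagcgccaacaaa
Col4a2, chr8:11312555-11312854, plus strand: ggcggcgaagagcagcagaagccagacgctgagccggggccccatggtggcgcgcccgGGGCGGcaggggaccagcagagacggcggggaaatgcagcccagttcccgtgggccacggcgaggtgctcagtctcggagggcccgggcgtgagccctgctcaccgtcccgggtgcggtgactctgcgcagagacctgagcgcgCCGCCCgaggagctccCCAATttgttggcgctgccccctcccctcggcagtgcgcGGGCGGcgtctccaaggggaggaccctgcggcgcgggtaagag
Col3a1, chr1:45311288-45311587, plus strand: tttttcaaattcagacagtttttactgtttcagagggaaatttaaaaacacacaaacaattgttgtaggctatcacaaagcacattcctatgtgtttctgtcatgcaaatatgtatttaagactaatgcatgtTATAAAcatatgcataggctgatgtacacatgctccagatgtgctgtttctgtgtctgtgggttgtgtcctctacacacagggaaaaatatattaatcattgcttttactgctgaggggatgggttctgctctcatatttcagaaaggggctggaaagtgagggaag
Col1a2, chr6:4505368-4505667, plus strand: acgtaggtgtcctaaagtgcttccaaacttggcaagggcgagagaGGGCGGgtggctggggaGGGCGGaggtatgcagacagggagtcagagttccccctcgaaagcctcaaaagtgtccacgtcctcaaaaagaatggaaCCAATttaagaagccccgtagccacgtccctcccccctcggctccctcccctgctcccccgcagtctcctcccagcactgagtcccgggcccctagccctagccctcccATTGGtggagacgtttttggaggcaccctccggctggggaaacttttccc

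Col4a1 and Col4a2 lie head to head with starts 21 bases apart, so their windows share 78 bases (chr8:11312777-11312854). Both windows hold CCAAT and GGGCGG and are rich in CpG (37 and 33). The window of Col3a1 holds TATAAA and 0 CpG, and that of Col1a2 holds 2 matches each of CCAAT and GGGCGG and 13 CpG. GGGCGG occurred in 60.5% of collagen windows and in 35.7% of all 32851 windows, CCAAT in 34.2% and 37.4%, and TATAAA in 13.2% and 13.6%. Among windows of the 10 highest collagen genes these shares were 66.7%, 41.7% and 8.33%, and among those of the other 25 genes 57.7%, 30.8% and 15.4%. Collagen windows had a median of 59.8% GC and 11.5 CpG, against 52.7% and 7 in all windows. The part of GC content in the GGGCGG share was not tested. A match describes the letters of the window and shows no binding.

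Between midpoint and endpoint in lean mice, 10 collagen genes fell and 0 rose. Of 30 tested members 10 were lower and 0 higher at the endpoint by edgeR's quasi-likelihood test at a Benjamini-Hochberg adjusted p of 0.05. Of all 16352 genes tested, 9.5% were lower, 21.4% higher and 30.9% changed in either direction. The largest fall was that of Col1a1 (log2 fold change -2.66, SE 0.46, edgeR adjusted p = 0.000419), followed by Col1a2 (log2 fold change -2.15, SE 0.43, edgeR adjusted p = 0.00117). Col6a4, a type VI chain, fell by 2.02 (SE 0.49, adjusted p = 0.0043) and Col5a2 by 1.51 (SE 0.36, adjusted p = 0.00389) on the log2 scale. Among the abundant chains Col5a1 fell to 0.451 times its midpoint level (log2 fold change -1.15, SE 0.26, edgeR adjusted p = 0.00248) and Col6a2 to 0.497 times (log2 fold change -1.01, SE 0.30, edgeR adjusted p = 0.0175). Col18a1, Col6a1, Col4a1 and Col16a1 fell by 0.73, 0.70, 0.56 and 0.51 on the log2 scale, with adjusted p-values of 0.02, 0.0469, 0.0258 and 0.0492.

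By class, 4 of 10 tested fibrillar genes, 1 of 3 basement membrane genes and 5 of 17 other genes were lower. The median log2 fold change was -0.39, -0.50 and -0.41 in the 3 classes, against 0.036 over all genes. Col3a1 did not pass the test (log2 fold change -0.35, SE 0.26, edgeR adjusted p = 0.306), nor did Col6a3 (log2 fold change -0.26) or Col4a2 (-0.50). The number of members called was 6 when any one of lean midpoint replicate 1, lean midpoint replicate 4, lean endpoint replicate 3 or lean endpoint replicate 5 was left out. Groups did not overlap for 9 members in the lower direction (13.2% of all genes) and for 2 in the higher direction (19.9%).

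In obese mice members changed in both directions over the same interval. Of 30 tested members 13 were lower and 6 higher at the endpoint, where 36.1% of all genes were lower and 37.8% higher by the same edgeR test. With 73.9% of all genes called in either direction, the share of members called (63.3%) was below that of all genes. The lowest adjusted p-values were those of Col4a2, which fell to 0.403 times its midpoint level (log2 fold change -1.31, SE 0.19, edgeR adjusted p = 5.94e-06), and Col6a2, which fell to 0.270 times (log2 fold change -1.89, SE 0.28, edgeR adjusted p = 8.11e-06). Col6a1 fell by 1.34, Col5a1 by 1.24, Col18a1 by 1.10 and Col16a1 by 0.95 on the log2 scale, each with an adjusted p of 8.1e-05 or less. Type I chains fell here too, Col1a1 to 0.270 times (log2 fold change -1.89, SE 0.39, edgeR adjusted p = 0.000242) and Col1a2 to 0.476 times (log2 fold change -1.07, SE 0.37, edgeR adjusted p = 0.0126). Smaller falls were those of Col5a3 (-0.77), Col7a1 (-0.77), Col4a1 (-0.71) and Col6a3 (-0.47, adjusted p = 0.046), and the transmembrane Col13a1 fell by 1.23. The call of Col6a3 was lost with RLE scaling (adjusted p = 0.0657), with DESeq2 (0.0681) and with no filter on low counts (0.103), and that of Col7a1 with limma-voom (0.089).

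The genes that rose were all scarce. Col24a1 rose 3.02-fold (log2 fold change 1.59, SE 0.32, edgeR adjusted p = 0.000172) and was the only one of the 6 above 1 CPM. Col8a1, a short chain collagen of vessel walls and the cornea, rose from a mean of 0.0503 CPM to 0.614 CPM (log2 fold change 3.61, SE 0.72, edgeR adjusted p = 0.000162). Col10a1, the collagen of hypertrophic cartilage, rose from 0.0422 to 0.453 CPM (log2 fold change 3.43, SE 0.87, edgeR adjusted p = 0.00147), and Col4a4, a chain of the kidney type IV network, from 0.0433 to 0.324 CPM. Col14a1 and Col20a1, both FACIT collagens, rose by 1.53 and 1.08 on the log2 scale. Over the 18 libraries Col8a1, Col10a1 and Col4a4 had 240, 207 and 136 counts in all, so their folds rest on few reads.

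By class, 4 fibrillar genes were lower and 1 higher, 2 basement membrane genes lower and 1 higher, and 7 other genes lower and 4 higher. Class medians were -0.19, -0.71 and -0.19 on the log2 scale, against -0.0015 over all genes. Col3a1 was at 1538 ± 629 CPM (n = 5) at midpoint and 1847 ± 413 CPM (n = 5) at endpoint and did not pass the test (log2 fold change 0.26, SE 0.24, edgeR adjusted p = 0.319). Genes lower over time in both diets were Col16a1, Col18a1, Col1a1, Col1a2, Col4a1, Col5a1, Col6a1 and Col6a2. The share of all genes lower in both diets is not given here, so this overlap is not read as particular to collagen genes. Groups did not overlap for 9 members in the lower direction (28.9% of all genes) and 4 in the higher direction (31.3%).

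**Figure D3:**
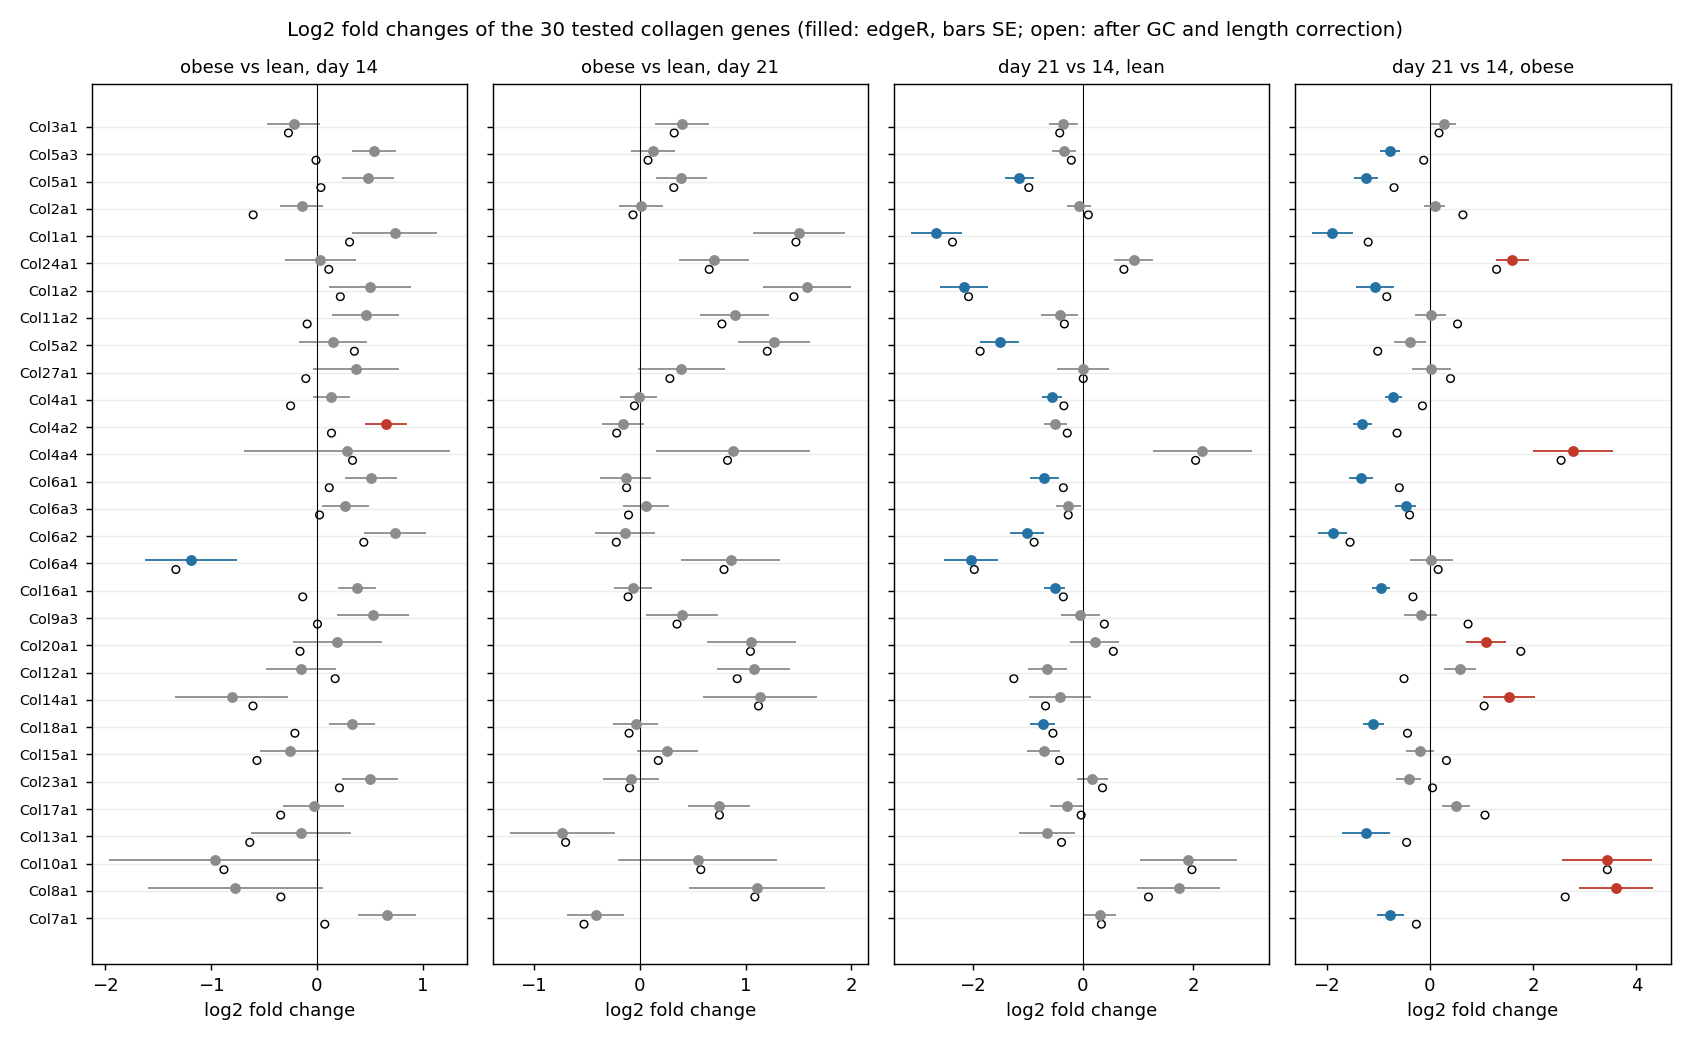
Log2 fold change with SE of the 30 tested collagen genes in the diet and time comparisons; red and blue points were higher and lower at an edgeR adjusted p of 0.05, grey points were not called, and open circles are values after GC and length correction. Over time the 10 highest members lie below 0 in both diets, except Col3a1 at 0.26 in obese mice, and the 6 members called higher in obese mice include Col24a1, Col8a1 and Col10a1.

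Other measures moved with these falls. The summed pericyte and smooth muscle markers, mainly Acta2, were 166 ± 11.6 CPM in lean midpoint and 86.5 ± 7.72 CPM in lean endpoint tumors, and 270 ± 108 and 81.4 ± 20.2 CPM in obese mice. Summed endothelial markers were 22.9 ± 1.49 and 14.0 ± 1.29 CPM in lean and 22.4 ± 5.23 and 13.6 ± 3.86 CPM in obese mice. Of 12 tested fibroblast markers 4 were higher and 3 lower over time in lean mice (median log2 fold change -0.40), and 5 were higher and 4 lower in obese mice (median -0.46). Those higher in both were Pdgfra (0.73 and 1.47), Dcn (3.96 and 5.29), Lum (4.14 and 5.4) and Fap, and those lower in both were Fbln2 (-0.84 and -0.84), Mmp2 (-1.01 and -1.29) and Thy1 (-1.32 and -2.09). Pdgfrb was lower in obese mice (251 ± 83.2 and 111 ± 23.5 CPM, log2 fold change -1.18), where Postn was higher (0.95). The part of these cell markers in the collagen results was not tested.

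**Figure D4:**
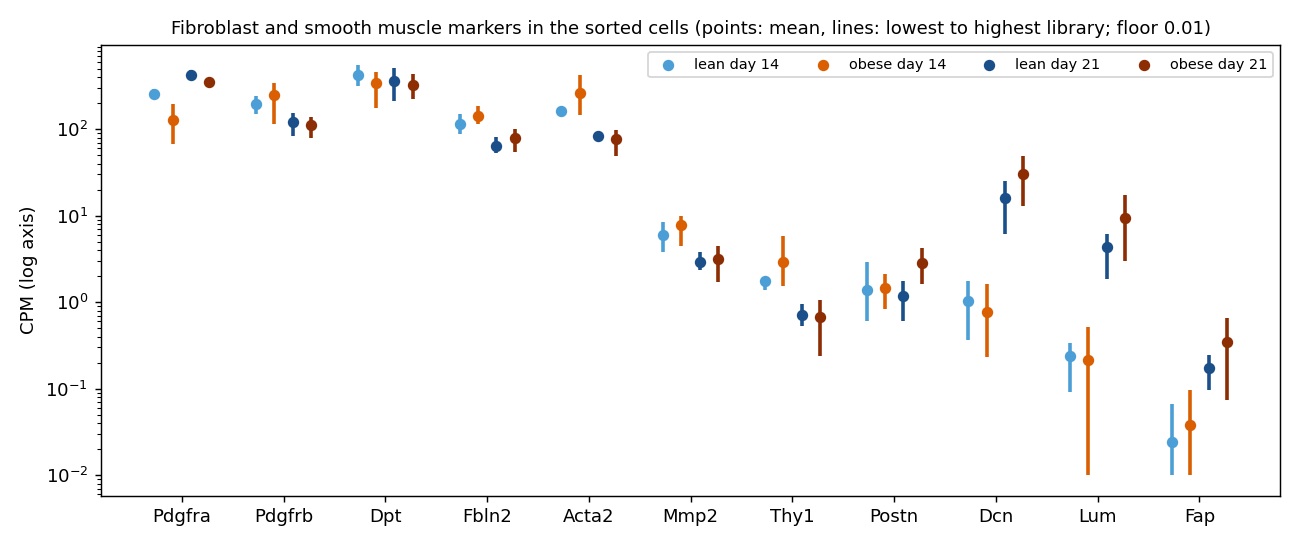
Levels of 11 fibroblast and smooth muscle markers per group in CPM on a log axis, as the mean (point) and the lowest to highest tumor (line), with a floor at 0.01. Dpt, Pdgfra, Pdgfrb, Fbln2 and Acta2 lie far above Fap in all 4 groups, and Dcn and Lum lie higher at the endpoint.

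The GC trend also moved with time. When each library was corrected for a smooth trend of expression with GC content and length, 8 members were lower and 0 higher in lean mice (12% and 12.4% of all genes). In obese mice 8 were lower and 7 higher (32.1% and 25.4% of all genes). The median log2 fold change over the 30 members was then -0.34 in lean mice, against -0.031 over all genes, and -0.036 in obese mice, against -0.090 over all genes, so that in obese mice it lay above the median of all genes instead of below it. By class the corrected obese medians were 0.03 for fibrillar, -0.15 for basement membrane and 0.05 for other genes. Of the 10 lean calls 7 held, and Col16a1, Col4a1 and Col6a1 were lost, while Col12a1 was gained. Of the 19 obese calls 12 held. Those lost were Col13a1, Col14a1, Col1a2, Col4a1, Col5a3, Col6a3 and Col7a1, and Col17a1, Col2a1 and Col5a2 were gained. After the correction the fall of Col4a1 in obese mice was 0.15 in place of 0.71 (log2), and that of Col6a2 was 1.55 in place of 1.89. Col18a1, Col1a1, Col5a1 and Col6a2 were called lower in both diets with and without it, given without the share of all genes that were.

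At midpoint, obese against lean mice, few collagen genes passed the test. Col4a2 was 1.58 times as high in obese mice (log2 fold change 0.66, SE 0.20, edgeR adjusted p = 0.0311) and Col6a4 0.438 times as high (log2 fold change -1.19, SE 0.43, edgeR adjusted p = 0.0458). That is 1 member higher and 1 lower of 30, where 16.7% and 12.8% of all genes were (29.5% in either direction). Col6a4 was at 1.26, 1.22, 1.12 and 3.65 CPM in lean and at 0.967, 1.02, 0.732, 0.365 and 0.867 CPM in obese midpoint tumors, the only member whose groups did not overlap (3.14% of all genes were lower without overlap). For Col4a2, obese midpoint replicate 1 lay within the lean range and the other 4 obese tumors lay above it. Col6a1 (log2 fold change 0.51), Col6a2 (0.74), Col5a1 (0.48) and Col5a3 (0.54) were higher in obese mice by group means but did not pass the test.

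The median log2 fold change at midpoint was 0.41 over fibrillar, 0.29 over basement membrane and 0.19 over other genes, and -0.0010 over all genes. Obese midpoint replicate 1 was the lowest obese midpoint tumor in Col6a1, Col6a2, Col5a1 and Col4a2, and also in its GC slope (0.326, against 0.666 to 1.52). Without it, 9 members were called, 8 of them higher. The share of all genes called in that fit is not given here. With all 18 libraries 29.5% of all genes were called and 16.7% were higher. Leaving out lean midpoint replicate 2 or 3 or obese midpoint replicate 2 or 3 left 0 calls, as did a fit of the 2 midpoint groups alone (adjusted p = 0.0928 for Col4a2 and 0.0921 for Col6a4). Without lean midpoint replicate 4, the highest tumor in Col6a4, the log2 fold change of Col6a4 was -0.64 in place of -1.19 (adjusted p = 0.237). With the GC and length correction the fold change of Col4a2 was 0.14 (log2, adjusted p = 0.452). The class medians were then 0.015, 0.14 and -0.16, against 0.062 over all genes, and Col6a4 was the only member called (3.65% of all genes were lower).

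At endpoint, 0 of 30 members passed the test between obese and lean mice, as did 1 of all 16352 genes (0.00612%). DESeq2 called 1 member and limma-voom 0, given without the share of all genes that each tool called. At an unadjusted p under 0.05 edgeR gave 9 members, all higher in obese mice, where 2.29% of all genes were higher at that level and 4.89% in either direction. They were Col1a1, Col1a2, Col5a2, Col11a2 and Col24a1 of the fibrillar class, the FACIT genes Col12a1, Col14a1 and Col20a1, and the transmembrane Col17a1. The largest difference was that of Col1a2, with 1.03 ± 0.680 CPM in the 4 lean and 3.04 ± 1.06 CPM in the 5 obese tumors (log2 fold change 1.58, SE 0.41, edgeR adjusted p = 0.618). Col1a1 was at 0.952 ± 0.510 and 2.73 ± 1.01 CPM (log2 fold change 1.5, SE 0.43, edgeR adjusted p = 0.811), and Col5a2 at 0.783 ± 0.338 and 1.86 ± 0.642 CPM (log2 fold change 1.27, SE 0.34, edgeR adjusted p = 0.662).

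Groups did not overlap for Col1a2, Col12a1 and Col8a1, all higher in obese mice (0.636% of all genes were). The gaps were narrow and at low levels. The highest lean and lowest obese tumor were at 1.67 and 1.77 CPM for Col1a2, 1.39 and 1.47 CPM for Col12a1 and 0.468 and 0.480 CPM for Col8a1. All 10 tested fibrillar genes had a log2 fold change above 0, from 0.01 to 1.58, with a median of 0.55 against -0.0049 over all genes. With the GC and length correction Col2a1 was at -0.06 and the other tested fibrillar genes stayed above 0. The corrected fit called 0 of 30 members (0.0062% of all genes), with a median of 0.32 over members and -0.032 over all genes. Without the correction, the medians of the other classes were as follows. The median was -0.01 over basement membrane and 0.26 over other genes. Among the abundant members the log2 fold change was -0.13 for Col6a1, 0.06 for Col6a3, -0.01 for Col4a1 and 0.40 for Col3a1. Dcn was at 16 ± 7.83 and 30.7 ± 16 CPM and Lum at 4.29 ± 2.01 and 9.41 ± 6.05 CPM in lean and obese endpoint tumors, neither past the test (adjusted p = 0.989 for both). The abundant markers of the same fibroblast list had lower means in obese tumors, Pdgfra at 424 ± 52.3 and 355 ± 33.3 CPM, Dpt at 364 ± 124 and 323 ± 94.9 CPM and Pdgfrb at 121 ± 29.9 and 111 ± 23.5 CPM, also not past the test. Of the 12 tested markers 0 passed and 8 had a log2 fold change above 0. Their part in the type I difference was not tested.

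Whether the diet difference changed between the time points was tested as an interaction. By edgeR 0 of 30 members and 0% of all genes passed. DESeq2 called 2 members and limma-voom 5, but the share of all genes that each tool called is not given here. At an unadjusted p under 0.05 edgeR gave 7 members against 33.3% of all genes. Col6a4, Col14a1, Col12a1 and Col5a2 had a positive interaction, meaning a diet difference more toward obese at the endpoint than at midpoint. Col4a2, Col6a2 and Col7a1 had a negative one. The lowest adjusted p was that of Col6a4 (interaction 2.05, SE 0.64, edgeR adjusted p = 0.0983), and that of Col4a2 was 0.0988 with an interaction of -0.81. Without obese midpoint replicate 1, 6 members were called, also given without the share of all genes called in that fit.

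Since chains are assembled in fixed proportions, ratios between partner chains were taken within each library, per kb, and compared between groups with an exact two-sided permutation test on log2 ratios. There were 5 ratios and 4 comparisons, so p-values were adjusted over 20 tests, and the smallest p the design allows is 0.00794, or 0.0286 between the lean groups. The absolute ratios depend on the exon lengths used (4380 bases for Col6a1, 8326 for Col6a2, 6563 for Col1a1 and 12136 for Col1a2). The lengths of the transcripts present were not measured, so the ratios are not estimates of chain proportions. Changes between groups do not depend on these lengths. The type IV monomer holds 2 chains of Col4a1 to 1 of Col4a2. Their transcript ratio had a geometric mean of 2.75 in lean midpoint, 1.92 in obese midpoint, 2.57 in lean endpoint and 2.88 in obese endpoint tumors. It was 2.59, 1.49, 1.28, 2.25 and 2.37 in obese midpoint and 2.68, 2.9, 2.97, 3.18 and 2.7 in obese endpoint tumors, which did not overlap (exact permutation p = 0.00794, adjusted p = 0.0397).

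The ratio of Col6a1 to Col6a2, which enter the type VI monomer as 1 chain each, rose from 3.49 to 5.10 over time in obese mice and was 4.06 and 4.99 in lean mice (exact permutation p = 0.00794 and 0.0286, adjusted p = 0.0397 and 0.0953). In obese mice Col6a3 to Col6a1 rose from 0.506 to 0.900 and Col1a1 to Col1a2 fell from 2.83 to 1.65 (exact permutation p = 0.00794, adjusted p = 0.0397 for both). Type I collagen holds 2 chains of Col1a1 to 1 of Col1a2. Col5a1 to Col5a3 was 1.02 at midpoint and 0.580 at endpoint in lean mice and did not pass after adjustment (exact permutation p = 0.0286, adjusted p = 0.0953). For this ratio and for Col6a1 to Col6a2, the lean exact permutation p was the smallest the design allows. With 4 tumors a group such a ratio could hardly pass after adjustment over 20 tests, so these results do not show a smaller change in lean mice. None of the 5 ratios passed between diets at either time, where the lowest adjusted p was 0.139 for Col4a1 to Col4a2 at midpoint. The ratios were also taken from GC and length corrected levels, a choice made after seeing the data. In obese mice the log2 change of the type IV ratio was then 0.54 in place of 0.58, and that of Col6a1 to Col6a2 was 0.95 in place of 0.55. Both kept the smallest exact permutation p that the design allows (0.00794), and the adjusted p rose to 0.0794 for both because fewer of the 20 tests shared that p. The change of Col6a3 to Col6a1 was 0.20 in place of 0.83 (adjusted p = 0.413), and that of the type I ratio was -0.34 in place of -0.78 (adjusted p = 0.179).

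**Figure D5:**
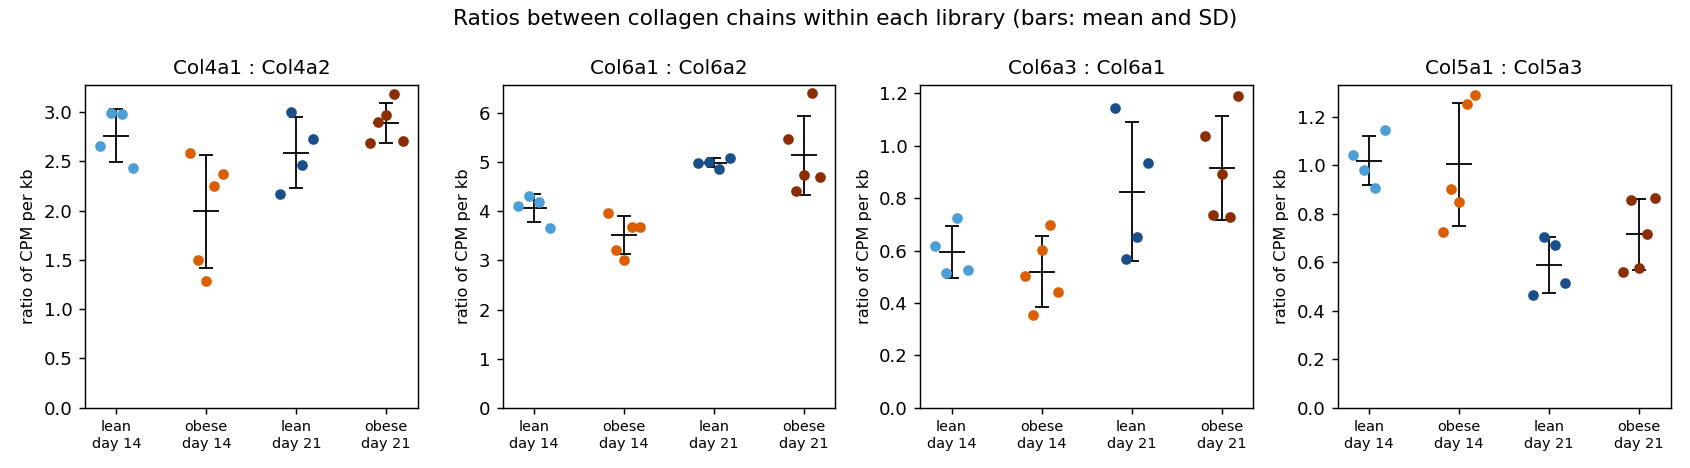
Ratio of partner chain levels per kb in each of the 18 tumors, by group, on linear axes from 0, for 4 of the 5 ratios; bars are the mean and SD. The Col4a1 to Col4a2 ratio is lowest in the obese midpoint tumors, where replicates 2 and 3 lie at 1.49 and 1.28.

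Genes that make, secrete and sense collagen were read from 5 further lists. All values for these lists come from the fit without the GC and length correction. The part of the GC trend in them was not tested. Of 19 tested genes that modify and fold the chains, 6 were lower and 1 higher over time in lean mice, and 11 lower and 6 higher in obese mice. Plod2, the lysyl hydroxylase of the telopeptides, rose in both (log2 fold changes 2.11 and 3.41, adjusted p = 0.000323 and 3.01e-07). Fkbp10 and Plod3, a chaperone and a second lysyl hydroxylase, fell in both, by 0.81 and 0.80 in lean and by 1.61 and 1.30 in obese mice. The median of this list was -0.45 in lean and -0.77 in obese mice. At midpoint 3 of its genes were higher in obese mice, among them Fkbp10 (0.85), and 2 were lower, among them P4ha1 (-0.84), a catalytic subunit of prolyl hydroxylase.

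Of 16 genes for secretion, propeptide removal and crosslinking, 3 rose and 3 fell in lean and 5 rose and 6 fell in obese mice. Sec23a and Mia3, which act in the export of procollagen from the endoplasmic reticulum, rose in lean (1.19 and 1.23) and obese mice (2.35 and 2.10). Pcolce, an enhancer of C-propeptide cleavage, fell in both (-0.67 and -1.55). Among collagen receptors, which let cells sense or take up collagen, more rose than fell. Of 9 tested, 5 rose and 1 fell in lean and 6 rose and 1 fell in obese mice. The discoidin receptor Ddr2 rose (0.93 and 1.52) whereas Ddr1 fell (-1.58 and -2.16), and the integrin chain Itga1 rose (0.89 and 2.09).

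Among 13 partners in basement membranes 2 rose and 1 fell in lean and 3 rose and 5 fell in obese mice. The laminin chain Lamb1 rose in both (0.87 and 1.01), and Lamb2 fell in obese mice (-1.59). Of 15 genes of TGF-beta signaling, which is known to raise collagen transcription in fibroblasts, 4 rose and 1 fell in lean and 9 rose and 4 fell in obese mice. Tgfbr1 rose (1.93 and 3.09) and Smad3 fell (-0.87 and -1.17). At midpoint Tgfb1 was 1.08 higher in obese mice on the log2 scale (adjusted p = 0.0304). At endpoint 0 genes of the 5 lists passed the edgeR test between diets. These shares stand beside 30.9% of all genes called over time in lean, 73.9% in obese mice and 29.5% between diets at midpoint.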

How the data were processed

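The authors deposited whole-number counts per gene, not normalized, for 39017 genes and 19 libraries, with gene lengths in the same table; midpoint and endpoint columns both hold raw counts. The submitters' processing notes name the tools TopHat and DESeq and the build mm10. How reads were counted, the annotation release and any strand setting were not found in these sources. Symbols came from GENCODE by Ensembl identifier (37693 genes matched). Of the collagen genes 8 share exon bases with another gene, at most 6.07% of their own, and may share reads.

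Counts of 18 libraries were fitted with edgeR 4.0.16 under R 4.3.3, with TMM scaling, filterByExpr and 1 mean per group. The quasi-likelihood p-values were Benjamini-Hochberg adjusted over 16352 genes, with 0.05 as the threshold. SEs were computed as the log2 fold change over the square root of F. The fit was tested on simulated data. Alternatives were RLE scaling, no filter or 5 CPM in 4 libraries, DESeq2 1.42.0, limma-voom (limma 3.58.1), the compared groups alone, a replicate block, a GC and length correction (spline with 5 degrees of freedom per library) and leaving out each library. Replicate numbers came from titles, and no label ties equal numbers to a shared animal or day.

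The collagen genes and all gene lists were chosen with earlier results of these data known. Values in every library are given for members called in any comparison with a mean of at least 1 CPM and for the 2 highest per kb of the fibrillar, basement membrane and other classes, 15 genes in all. Up to 3 genes with the smallest p are named per pathway list. Other members, such as Col6a4, Col8a1, Col10a1 and Col4a4, were named after their values were seen, and the corrected chain ratios were added after seeing the data.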

Additional observations from a re-analysis of the deposited data

Results flagged for a closer look

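In groups of 4 or 5 tumors, 3 of 60 sets of values (15 named members in 4 groups) held a tumor far from the others of its group by Dixon's criterion at the 95% level; chance gives about 1 in 20. Col3a1 stood at 1959 CPM in lean endpoint replicate 2, where the nearest other tumor was at 1244 CPM. Col1a1 stood at 16.9 CPM in obese midpoint replicate 3, where the nearest was at 10.1 CPM. Col24a1 stood at 7.16 CPM in lean endpoint replicate 1, the tumor with the highest mitochondrial share, where the nearest was at 3.59 CPM.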

How the results depend on the processing

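At midpoint between diets the count of collagen genes called, 2, was 1 with no filter on low counts, 9 with limma-voom, 1 with the replicate block, 1 with the GC and length correction, 0 with that correction and the replicate block together, and 0 in a fit of the compared groups alone. It ranged from 0 to 9 when each library was left out in turn. At endpoint between diets the count of 0 was 1 with DESeq2 and stayed at 0 without any one library. Over time in lean mice the count of 10 ranged from 6 to 13 without any one library and was within 1.5 times of 10 under the other alternatives. Over time in obese mice the count of 19 was 12 with a filter of 5 CPM in 4 libraries, which tested fewer genes, and ranged from 17 to 20 without any one library. The interaction count of 0 was 2 with DESeq2 and 5 with limma-voom, and ranged from 0 to 6 without any one library. Apart from the GC and length correction, the share of all genes called in these fits is not given here. The counts therefore show dependence on the processing only. The cause of these moves was not tested. For 31 results on single genes, 739 of 836 values kept direction and call, 97 lost the call and 0 reversed. On chromosomes 1 to 4 with all 19 libraries, 9 of 9 results on single genes kept their call. Correlations between same-numbered libraries were mixed (4 of 16 were above 0.1, from -0.41 to 0.55). They cannot show whether equal numbers shared a day or batch. As no label ties equal numbers together, the numbers were not taken as a pairing. Genes under 1 CPM rest on few counts, and with 4 or 5 tumors a group small differences were not detectable.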

Other observations

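The library left out, lean endpoint replicate 4, could still be read on chromosomes 1 to 4, where 18 collagen genes lie. Per 1000000 counts of those chromosomes, 13 of the 18 lay within the range of the other 4 lean endpoint tumors. Col3a1 was at 6215, where the others ran from 5306 to 10313, and Col6a3 at 11153, where the others ran from 10188 to 14743. Col5a1 was at 1459 (732 to 1839 in the others) and Col16a1 at 825 (532 to 964). Outside the range were Col24a1 at 9.24 (15.9 to 30.5), Col15a1 at 4.57 (5.21 to 11.03), Col5a2 at 5.49 (2.31 to 5.38), Col8a2 at 0.732 (0.193 to 0.589) and Col4a3 at 1.19 (0 to 0.884).

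The makeup of the collagen pool was also taken by class, per kb. Fibrillar genes took 22.8 ± 1.92% of it in lean midpoint, 19.4 ± 2.51% in obese midpoint, 23.7 ± 2.53% in lean endpoint and 29.2 ± 2.52% in obese endpoint tumors. Beaded filament genes took 52.0 ± 2.83%, 55.9 ± 3.74%, 51.5 ± 4.13% and 47.7 ± 2.29%, and basement membrane genes 16.7 ± 0.790%, 16.2 ± 2.05%, 16.7 ± 1.85% and 15.6 ± 0.763% (SD, n = 4, 5, 4 and 5). The fibrillar share of every obese endpoint tumor (27.2 to 33.4%) lay above that of every other tumor. Most of the fibrillar share was Col3a1, which alone took 13.9 ± 1.87%, 9.41 ± 3.53%, 15.5 ± 1.66% and 19.8 ± 3.27% in the same order. Its shares overlapped between lean and obese endpoint tumors. Col5a1 took 2.93 and 3.7% and Col5a3 5.04 and 5.33% in lean and obese endpoint tumors. The class difference at endpoint therefore mainly follows 1 gene. These shares were not tested.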
